A study of Mus musculus with 5 samples.

Results

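The genes described here are 49 transcripts that cells switch on quickly when they are activated or stressed. They were taken by symbol from a given list and all 49 were found among the 48440 genes of the expression table. The list holds 29 immediate early genes, 14 heat shock and chaperone genes, and 6 genes of the integrated stress response and the GADD45 family. All 49 had enough counts to be tested, as 14460 genes had in all.

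RNA was sequenced from splenic CD4+CD25+ regulatory T cells (Tregs), lymphocytes that restrain immune responses, isolated with magnetic beads from C57B/6 mice. All mice were on a high-fat diet, and the cells were freshly isolated and not treated. There were 2 libraries of WT mice and 3 of CD4-KLF10-KO mice (KO), in which the gene of the zinc-finger factor KLF10 is knocked out in CD4 T cells. Age, sex, the Cre driver, the deleted part of the gene and whether mice were pooled were not given in the sources used here. Nothing says that the libraries come from separate animals, so the p-values rest on the spread among the 5 libraries, which may be technical.

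Immediate early genes need no new protein for their induction. In T cells, signals of the antigen receptor and its costimulators reach factors that wait in the cell and drive the NR4A, EGR, FOS, JUN and IER genes within minutes. The same wave brings its own brakes, such as the DUSP phosphatases, the mRNA-decay protein ZFP36 and the NF-κB inhibitors. Heat shock genes are driven by heat shock factor 1 when unfolded protein accumulates, and their products hold or refold proteins. Both groups also answer the handling of tissue, so in freshly isolated cells their level carries the state in the spleen together with the isolation itself.

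The promoters of 3 members are shown because these genes differed most between single libraries (Hspa1a and Hspa1b) or had the largest fitted log2 change above 0 among the immediate early genes (Btg2). Each line is the 250 bases before the gene start from RefSeq (GRCm38.p6), read 5′ to 3′ on the minus strand, on which all 3 genes lie. Capitals in the Hspa1 promoters mark a pair of heat shock factor half-sites (GAANNTTC or TTCNNGAA) that begins at position −104 from the start. Capitals in the Btg2 promoter mark a cAMP response element (TGACGTCA), the site of CREB and ATF factors, at position −166.
Hspa1a, chr17:34972157-34972406: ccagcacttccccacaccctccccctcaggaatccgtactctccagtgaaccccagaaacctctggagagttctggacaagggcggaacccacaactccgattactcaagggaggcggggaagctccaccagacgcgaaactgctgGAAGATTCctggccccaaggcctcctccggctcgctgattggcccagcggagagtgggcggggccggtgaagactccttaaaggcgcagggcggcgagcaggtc
Hspa1b, chr17:34959239-34959488: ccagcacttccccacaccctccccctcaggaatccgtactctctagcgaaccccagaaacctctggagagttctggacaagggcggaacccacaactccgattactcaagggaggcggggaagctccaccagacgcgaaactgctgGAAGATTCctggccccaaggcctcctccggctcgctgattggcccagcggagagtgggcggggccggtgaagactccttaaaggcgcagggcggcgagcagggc
Btg2, chr1:134079156-134079405: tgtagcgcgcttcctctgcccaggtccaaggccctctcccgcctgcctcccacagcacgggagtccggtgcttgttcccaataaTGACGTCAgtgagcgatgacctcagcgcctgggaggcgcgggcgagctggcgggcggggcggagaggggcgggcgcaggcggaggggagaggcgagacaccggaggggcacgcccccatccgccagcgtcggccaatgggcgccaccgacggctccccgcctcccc

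The Hspa1a and Hspa1b promoters were identical at 247 of 250 positions. Of the members, 40 had a promoter in the RefSeq table, and both strands of every listed start were searched. The half-site pair was found for 8 of 11 heat shock members (Dnaja1, Dnajb4, Hspa1a, Hspa1b, Hspb1, Hspd1, Hspe1 and Hsph1), for 4 of 23 immediate early members (Egr2, Fosl2, Jun and Nfkbid), for 0 of 6 stress members, and for 14.5% of the 27025 genes with a promoter. A run of 3 half-sites, GAA and TTC in alternation with any 2 bases between them, contains the pair. It was found for Hspd1 and Hspe1, neighbours that point away from each other, and for 0.514% of all genes. The run and pair matches of Hspd1 and Hspe1 are the same bases read from opposite strands, so they are not independent. Hspa1a and Hspa1b, with nearly identical promoters, are likewise counted as separate members. The cAMP response element was found for Btg2, Dusp1 and Nfkbid (1.77% of all genes), and the CArG box, the site of serum response factor, for Dusp5, Egr2 and Zfp36 (1.62% of all genes). The AP-1 site TGANTCA was found for Bag3, Csrnp1, Ddit3, Hspa5 and Tnfaip3 (7.82% of all genes), and the C/EBP-ATF element TGATGCAA for Atf3 and Gadd45g (0.918% of all genes). These matches are descriptions of the letters in this window.

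Total counts per library were between 25622614 and 30521797. The labels' library codes start with A for WT and with B for KO, and what that letter marks cannot be told apart from genotype. Klf10 transcripts were at 22.0 and 22.6 CPM (counts scaled to a common library size) in WT 1 and WT 2 and at 16.0, 12.6 and 8.87 CPM in KO 1, KO 2 and KO 3. Both WT libraries were above all of KO (log2 change −0.84, SE 0.22, edgeR adjusted p = 0.136, DESeq2 adjusted p = 0.0161). The Treg markers were measured in all libraries, with 0 of 15 at 0 and a summed level of 2792 to 3344 CPM in WT and 2781 to 2875 CPM in KO. The preparations also held transcripts of other cells. Erythroid markers summed to 14845 to 20808 CPM in WT and 56191 to 92688 CPM in KO, with all 15 higher in every KO library and 0 at 0. Macrophage and monocyte markers summed to 872 to 1216 CPM in WT and 1972 to 2426 CPM in KO, with 19 of 21 higher in every KO library and 0 at 0. The 15 pan-T cell genes summed to 3676 to 4296 CPM in WT and 3211 to 3350 CPM in KO, a median log2 change of −0.31. B cell markers summed to 3292 to 4758 CPM in WT and 3909 to 4309 CPM in KO. The part of these other cells in the levels given here was not tested, and in such bulk samples fewer cells of a type and less RNA per cell cannot be told apart.

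Many of the early response genes were among the abundant transcripts of these preparations in both genotypes. Levels between genes are given in TPM, which corrects for gene length and sums to the same total in every library. The AP-1 subunit genes Jund and Junb led, with means over the 5 libraries of 2373 and 2156 TPM, ranks 56 and 62 of the genes tested. The chaperone genes Hsp90ab1 and Hspa8, the constitutive forms of HSP90 and HSP70, followed at 1892 and 1286 TPM, ranks 70 and 90. Junb was above Jund in WT 1 (2450 against 2426 TPM), and Hsp90ab1 was above Junb in KO 3 (1885 against 1876 TPM). The order of Jund, Junb and Hsp90ab1 is thus not resolved. Jun, Nfkbia, Fos and Dusp1 formed the next group at 872, 862, 839 and 767 TPM. The ranges of Jun (808 to 967 TPM), Nfkbia (817 to 899 TPM) and Fos (784 to 907 TPM) overlapped, so their order among themselves is not resolved.

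Of the 49 genes, 4 were in the first 100 by TPM and 28 in the first 1000, namely 19 immediate early, 7 heat shock and 2 stress members (Atf4 and Gadd45b). The lowest were Trib3 at 2.99 TPM, a pseudokinase induced by ATF4, the small heat shock protein gene Hspb1 at 6.27 TPM and Ier3 at 6.85 TPM. Members of the NR4A, EGR and HSP70 families were at unlike levels. Among the nuclear receptors, Nr4a1 was at 267 TPM against 10.9 TPM for Nr4a2 and 11.8 TPM for Nr4a3. Egr1 was at 98.4 TPM, Egr3 at 37.1 TPM and Egr2 at 21.4 TPM. The inducible HSP70 genes Hspa1a and Hspa1b, at 14.8 and 33.3 TPM, were far below Hspa8, and every library showed this order. Together the 49 genes took 1.81% and 1.85% of all TPM in WT 1 and WT 2 and 1.64%, 1.71% and 1.61% in KO 1, KO 2 and KO 3. The haemoglobin genes took 2.03% and 1.42% of the counts in WT and 8.25%, 5.36% and 5.32% in KO. Their part in the share of the 49 genes was not tested.

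**Figure D1:**
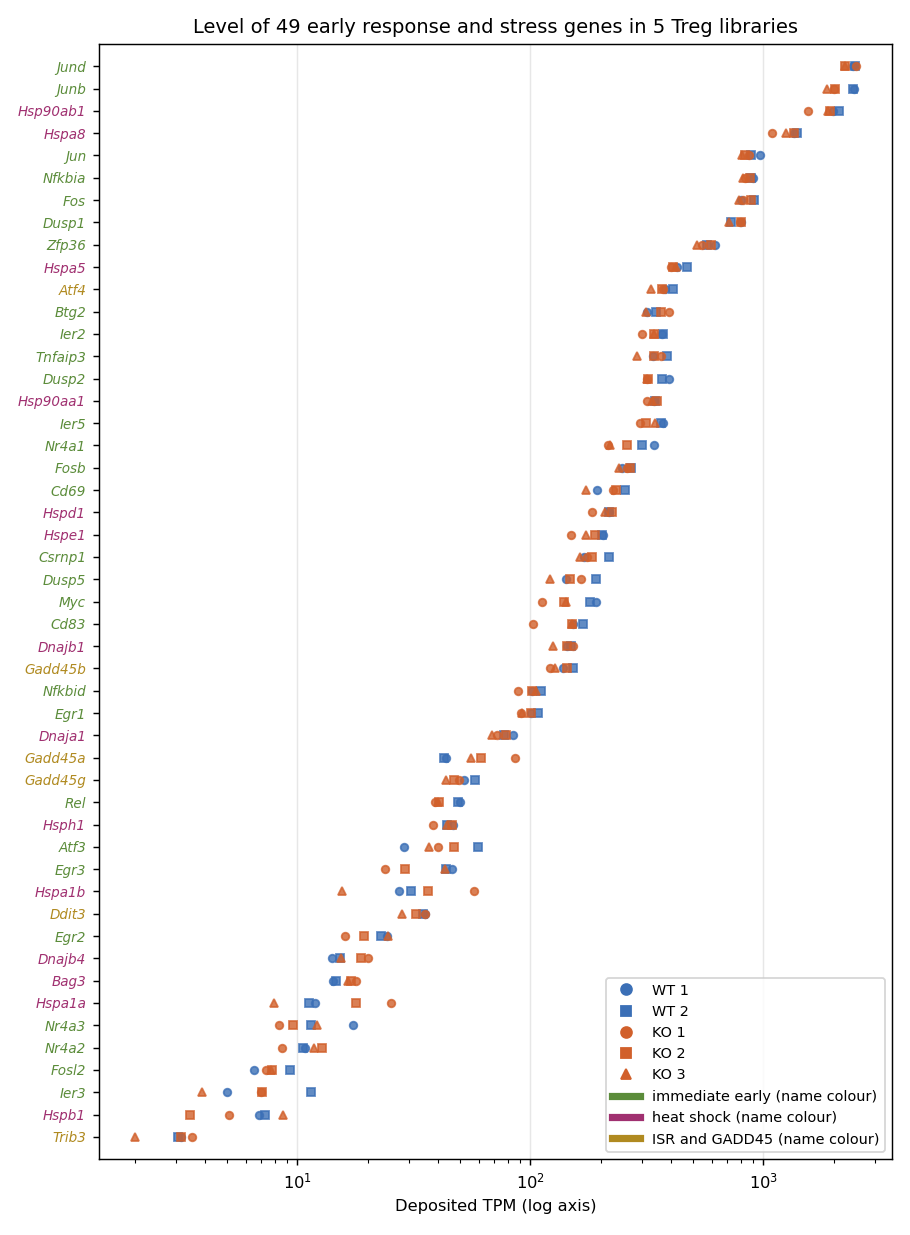
Deposited TPM on a log axis (horizontal) of each of the 49 genes (vertical, ordered by mean level) in the 2 WT (blue) and 3 KO (orange) libraries, 1 point per library, with gene names coloured by class. Jund, Junb, Hsp90ab1 and Hspa8 lie above 1000 TPM in every library, and Gadd45a, Hspa1a and Hspa1b have their highest point in KO 1.

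No member passed the test between genotypes at a false discovery rate of 0.05. In edgeR's quasi-likelihood test with Benjamini-Hochberg adjustment over all 14460 genes, 0 of 49 members were called, against 41 of all genes (0.284%, with 0.228% higher and 0.0553% lower in KO). The lowest adjusted p was that of Myc (0.0926). At an unadjusted p under 0.05 there were 5 members, Bag3, Dnajb4 and Gadd45a with higher and Myc and Nr4a1 with lower fitted levels in KO, beside 16.4% of all genes (10.7% higher and 5.62% lower). The DESeq2 Wald test called 2 members over all genes, Gadd45a as higher (adjusted p = 0.00659) and Myc as lower (adjusted p = 0.00872), beside 6.51% of all genes called (5.29% higher and 1.23% lower). The groups did not overlap for 9 members (35.0% of all genes). All of KO lay above WT for 6 members (Hsp90aa1, Hspd1, Hsph1, Dnajb4, Bag3 and Gadd45a) and below WT for 3 (Nr4a1, Myc and Rel), beside 17.6% and 17.4% of all genes. For the other 40 the groups overlapped. These orders are in CPM. In the deposited TPM the groups of Hsp90aa1, Hspd1 and Hsph1 overlapped, with KO 1 lowest. Hsp90aa1 was at 340 and 344 TPM in WT and 317, 350 and 332 TPM in KO. Some members that overlapped in CPM had every KO library below WT in TPM, among them Ier2, Ier5, Dusp2, Junb and Hspa8. The share of all genes in TPM was not computed.

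The fitted differences were small for most members. The log2 changes had a median of 0.0497 over the 49 genes, with 33 above 0 and 16 below. Over all 14460 genes tested the median was −0.0139, with 6751 above 0 and 7709 below. The count above 0 was 21 without WT 1, 27 without KO 1 and 44 with the libraries scaled to the pan-T cell genes. By class the median was 0.0377 for the immediate early genes, with quartiles of −0.0785 and 0.0967, then 0.0951 for the heat shock genes and 0.0412 for the 6 stress genes. The immediate early and stress medians were below 0 without WT 1 (−0.05 and −0.0061) and without KO 1 (−0.0023 and −0.06). For 37 of 49 members (75.5%) the 95% interval of the fitted change lay within 1.5-fold in either direction, as it did for 60.0% of all genes. These shares are not matched for level, and 28 of the 49 members are in the first 1000 genes by TPM. These 37 are 24 of 29 immediate early, 9 of 14 heat shock and 4 of 6 stress members. For the remaining 12 the libraries do not bound the difference to that range.

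**Figure D2:**
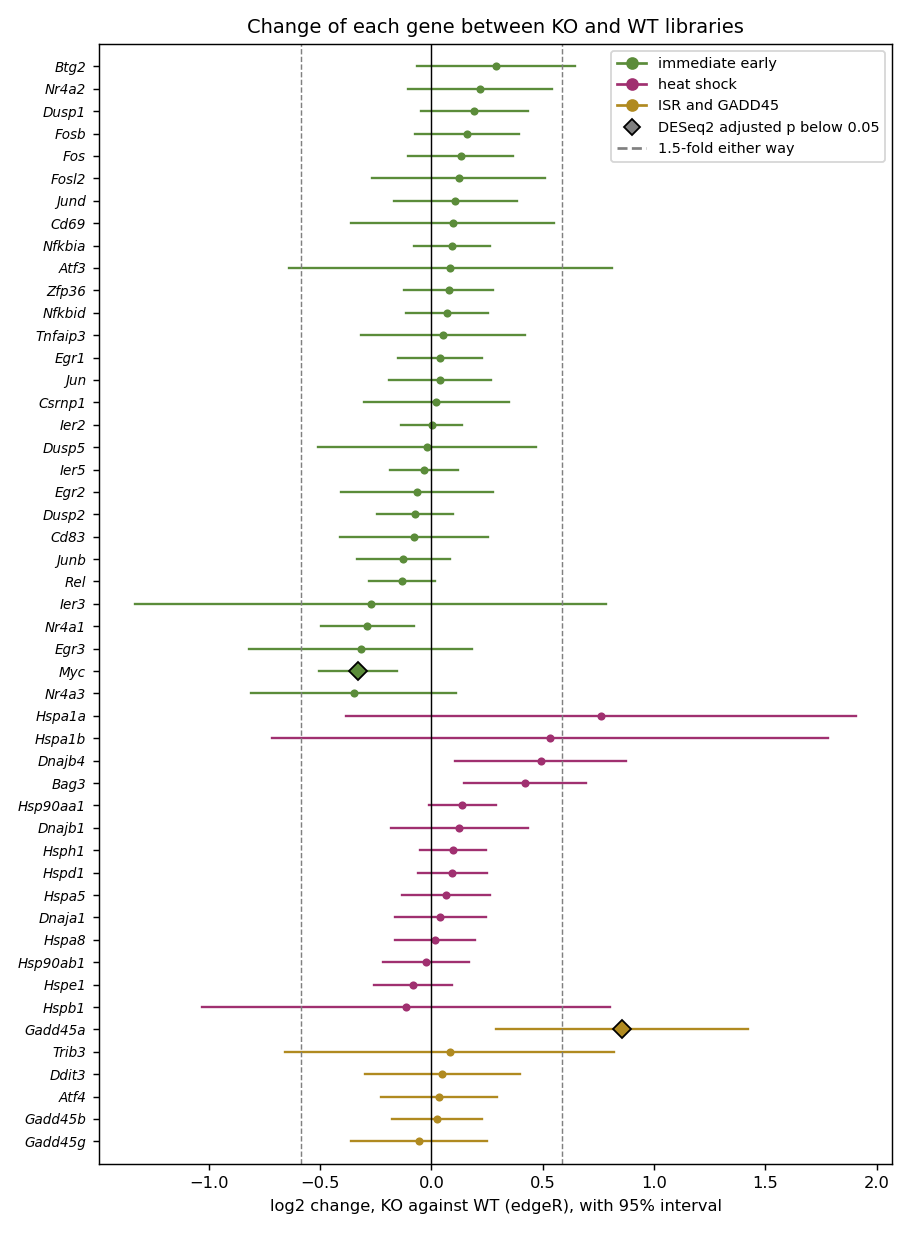
Fitted log2 change between KO and WT (horizontal, points) with its 95% interval (lines) for each gene (vertical), grouped by class and sorted by the change, and dashed lines at 1.5-fold either way. Most intervals cross 0, those of Myc, Nr4a1, Bag3, Dnajb4 and Gadd45a do not, and diamonds mark Myc and Gadd45a, the 2 genes called by DESeq2.

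Among the NR4A nuclear receptors, which antigen receptor signals induce and which help to maintain Foxp3 and Treg identity in mice, Nr4a1 stood lower in KO. Nr4a1 (chr15:101266846-101274792, plus strand) was measured at 325 and 297 CPM in WT 1 and WT 2 and at 256, 275 and 234 CPM in KO 1, KO 2 and KO 3. No KO library reached the lower of the WT libraries, with means of 311 ± 20.1 CPM (SD, n = 2) and 255 ± 20.5 CPM (SD, n = 3). The log2 change of −0.29 (SE 0.09) had an edgeR adjusted p of 0.173. Nr4a3 was at 40.2 and 27.5 CPM in WT and 23.9, 24.5 and 31.3 CPM in KO, so KO 3 lay between the WT libraries, which themselves were far apart. Nr4a2 was at 16.8 and 17.2 CPM in WT and 16.6, 22.1 and 20.6 CPM in KO, with KO 1 just below WT and the other KO libraries above. The 3 receptors thus had no common order of libraries.

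The EGR factors, zinc-finger proteins downstream of the ERK pathway and NFAT, did not separate the groups in CPM. Egr1 was at 174 and 193 CPM in WT and 196, 194 and 177 CPM in KO. Its groups overlapped, and the interval of its log2 change ran from −0.15 to 0.23. Egr3, which with Egr2 restrains T cell activation, was at 25.3 and 24.7 CPM in WT and 16.2, 17.6 and 26.3 CPM in KO. KO 1 and KO 2 lay below WT and KO 3 above both WT libraries, and Egr2 showed that order of libraries too (25.98, 28.1 and 35.8 CPM in KO against 31.9 and 30.9 CPM in WT).

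For the AP-1 factors, which bind DNA as FOS-JUN or JUN-JUN dimers, no member separated the groups in CPM. Fos was at 731 and 853 CPM in WT and 918, 891 and 794 CPM in KO, and Fosb at 362 and 409.7 CPM and 467, 433 and 391 CPM. In CPM, in both genes KO 1 was highest, WT 1 lowest, and KO 3 between the WT libraries. In the deposited TPM, in both genes WT 2 was highest and KO 3 lowest. Junb was at 2179 and 2231 CPM in WT and 2203, 1997 and 1858 CPM in KO, so KO 1 was at the WT level and KO 3 lowest. Over the 7 AP-1 and ATF genes the log2 change ranged from −0.13 for Junb to 0.16 for Fosb, with Jun at 0.04, Jund at 0.11, Fosl2 at 0.12 and Atf3 at 0.08. Without WT 1 it was −0.13 for Fosl2 and −0.37 for Atf3, and without KO 1 it was −0.04 for Jun and −0.0023 for Jund. Atf3, an AP-1 partner induced by many stresses, had its widest gap within WT, at 23.8 CPM in WT 1 and 51.1 CPM in WT 2, with the KO libraries at 41.4, 43.5 and 34.1 CPM between them.

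Myc was the immediate early gene with the lowest p. Myc (chr15:61985341-61990374, plus strand), the growth factor-induced driver of ribosome and metabolic genes, was at 205 and 199 CPM in WT 1 and WT 2 and at 149, 164 and 169 CPM in KO 1, KO 2 and KO 3. The WT libraries lay close together and above all KO libraries, with KO 1 lowest. The means were 202 ± 4.73 CPM (SD, n = 2) and 161 ± 10.5 CPM (SD, n = 3), a log2 change of −0.33 (SE 0.07), or a 1.26-fold lower level. It was not called by edgeR (adjusted p = 0.0926) at 0.05, was called at a false discovery rate of 0.10, beside 579 of all 14460 genes, and was called by DESeq2. The pan-T cell genes had a median log2 change of −0.31, near that of Myc, and with the libraries scaled to them the log2 change of Myc was −0.05 (SE 0.12, edgeR adjusted p = 0.724) and that of Nr4a1 was −0.0079 (SE 0.12, edgeR adjusted p = 0.961). That scaling moved the median of all genes by 0.28. By itself it brings a gene whose change is near that of the pan-T cell genes close to no change. Whether the share of T cells had a part in the levels of Myc and Nr4a1 was not tested.

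The remaining early response genes without a shared function did not separate the groups in CPM. Ier2 was the steadiest member in CPM, at 215 and 225 CPM in WT and 218, 221 and 223 CPM in KO. Its log2 change lay between −0.14 and 0.14 with 95% confidence. In the deposited TPM Ier2 was at 366 and 370 TPM in WT and 300, 339 and 340 TPM in KO. Btg2, an antiproliferative partner of the CCR4-NOT deadenylase, whose promoter is printed above, was at 335 and 380.5 CPM in WT and 518, 426 and 368 CPM in KO. KO 1 and KO 2 lay above both WT libraries and KO 3 between them (log2 change 0.29, SE 0.15, edgeR adjusted p = 0.398). Ier5 stayed between 439 and 481 CPM in all libraries. Csrnp1 ranged from 188 to 249.5 CPM with both ends in WT. Ier3 had few counts and ranged from 1.90 to 5.14 CPM.

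The feedback inhibitors all overlapped between the groups in CPM. Dusp1, the nuclear phosphatase that ends p38 and JNK signalling, was at 836 and 782 CPM in WT and 1022, 927 and 825 CPM in KO (log2 change 0.19, SE 0.10). Zfp36, which binds AU-rich elements and speeds mRNA decay, was at 828 and 792 CPM in WT and 901, 887 and 777 CPM in KO. For both genes KO 1 was highest, KO 2 next, and KO 3 below WT 1. Dusp2 and Dusp5, which act on ERK in the nucleus, had log2 changes of −0.07 and −0.02. In the NF-κB arm Rel, the c-Rel subunit needed for Treg development in mice, was at 144 and 145 CPM in WT and 139, 129 and 128 CPM in KO. Every KO library lay below WT, by a log2 change of −0.13 with an SE of 0.06 (edgeR adjusted p = 0.364). The other genes of this arm, Nfkbia (IκBα), Nfkbid and Tnfaip3 (A20), had log2 changes of 0.09, 0.07 and 0.05 with overlapping groups in CPM. The activation surface molecules Cd69 and Cd83 ranged from 148 to 214 CPM and from 105 to 143 CPM, and KO 1 was the highest library for Cd69 and the lowest for Cd83.

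In the heat shock class the abundant members varied little between libraries. Hspa8, the constitutive HSP70, was at 2176 and 2309.5 CPM in WT and 2161, 2402 and 2236 CPM in KO, a log2 change of 0.02 with an interval from −0.17 to 0.20. Hsp90ab1, the constitutive HSP90, had a log2 change of −0.03 with an interval from −0.22 to 0.17, and Hspa5 (BiP), the HSP70 of the endoplasmic reticulum, one of 0.06 with an interval from −0.13 to 0.26. Hsp90aa1, the inducible HSP90, was at 517 and 540.4 CPM in WT and 597, 589 and 561 CPM in KO. All KO libraries lay above WT, by 0.14 on the log2 scale with an SE of 0.06 (edgeR adjusted p = 0.336). Hsph1 (HSP110), the exchange factor of HSP70, and Hspd1 (HSP60), the mitochondrial chaperonin, also had every KO library above WT in CPM. Their log2 changes were 0.10 and 0.09. Hspe1 (HSP10), the lid of that chaperonin, overlapped in CPM, with a log2 change of −0.08. In TPM the groups of Hsp90aa1, Hsph1 and Hspd1 overlapped, as given above. The table's Hspd1 and Hspe1 share 112 bases on opposite strands, and the strand setting of the counting is not given in the sources used here.

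The inducible HSP70 genes had the widest spread between libraries of a group of all 49 genes. Hspa1a (chr17:34969190-34972156, minus strand) was at 13.6 and 13.3 CPM in WT and 35.8, 22.7 and 10.1 CPM in KO. Hspa1b (chr17:34956436-34959238, minus strand) was at 29.6 and 34.2 CPM in WT and 76.4, 43.7 and 18.7 CPM in KO. In both genes KO 1 was highest, KO 2 next and above WT, and KO 3 below both WT libraries. The transcripts are 98.9% identical over 2214 aligned positions, so reads may be split between them uncertainly. Hspa1a took between 27.9% and 35.0% of the joint counts in the 5 libraries. Their summed level, a quantity formed after the values were seen, was 43.2 and 47.5 CPM in WT and 112 CPM, 66.5 CPM and 28.8 CPM in KO 1, KO 2 and KO 3, a 3.90-fold range within the KO group. The means were 45.3 ± 3.07 CPM (SD, n = 2) and 69.2 ± 41.8 CPM (SD, n = 3), with a log2 change of 0.61 (SE 0.50) and an interval from −0.60 to 1.81 (edgeR adjusted p = 0.610). The difference between the genotypes was thus smaller than the spread within KO, and the interval allows a difference in either direction. Without KO 1 the log2 change was 0.29 (SE 0.36) for Hspa1a and −0.03 (SE 0.37) for Hspa1b. Without KO 3 it was 1.13 (SE 0.22) and 0.92 (SE 0.26), with edgeR adjusted p-values of 0.0935 and 0.181.

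The co-chaperones of HSP70 included both heat shock members with an unadjusted p under 0.05. Bag3 (chr7:128523616-128546981, plus strand), which links HSP70 to small heat shock proteins and to autophagy, was at 14.1 and 15.0 CPM in WT and 21.8, 18.6 and 18.2 CPM in KO. Every KO library lay above WT, with means of 14.6 ± 0.656 CPM (SD, n = 2) and 19.5 ± 1.97 CPM (SD, n = 3), a log2 change of 0.42 with an SE of 0.11 (edgeR adjusted p = 0.137). Dnajb4 (chr3:152178511-152210302, minus strand), an HSP40 that hands substrates to HSP70, was at 23.7 and 26.4 CPM in WT and 41.8, 35.0 and 28.98 CPM in KO. Its KO libraries also lay above WT, in the order KO 1, KO 2, KO 3 (log2 change 0.49, SE 0.16, edgeR adjusted p = 0.196). Dnajb1, the main inducible HSP40, was at 125 and 136 CPM in WT and 165, 139.6 and 122 CPM in KO, where KO 3 was the lowest of all libraries. Dnaja1 likewise had KO 1 highest and KO 3 lowest (log2 change 0.04). Hspb1 (HSP27) had few counts, at 2.74 and 2.99 CPM in WT and 2.504, 1.52 and 3.86 CPM in KO, and its interval from −1.03 to 0.80 leaves its difference unresolved at this depth. Scaled to the pan-T cell genes, Bag3 and Dnajb4 were called as higher in KO, with log2 changes of 0.70 and 0.76 (edgeR adjusted p = 0.0309 and 0.0402), beside 8.59% of all genes called higher and 0.180% called lower under that scaling.

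**Figure D3:**
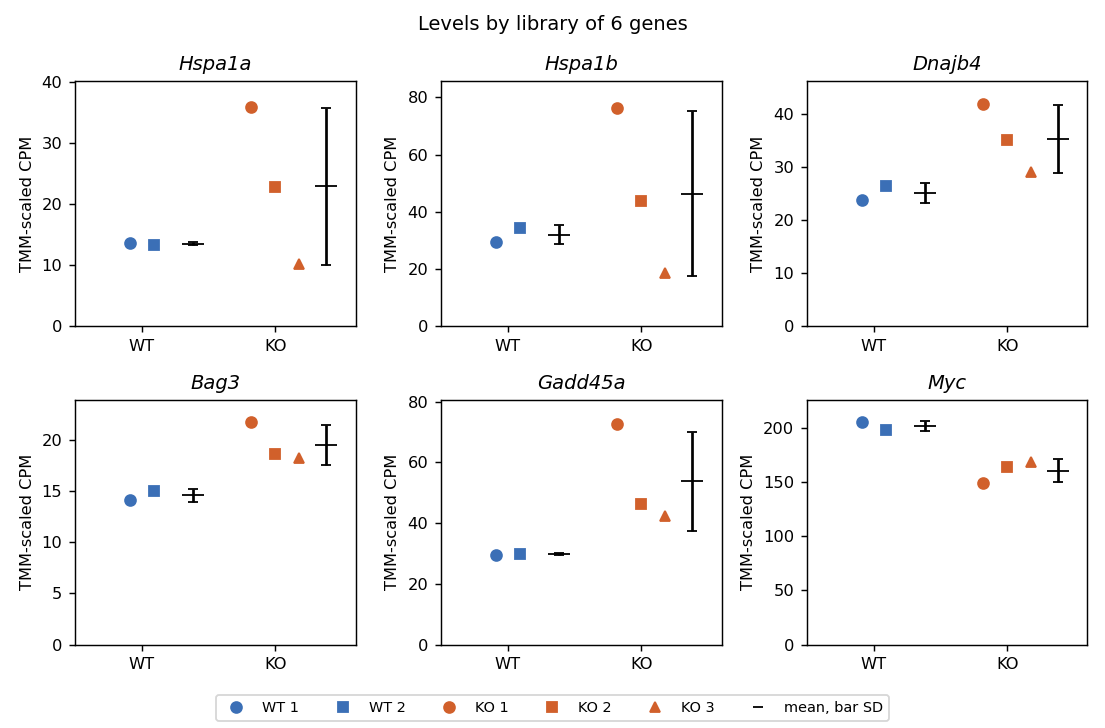
TMM-scaled CPM (vertical, from 0) of Hspa1a, Hspa1b, Dnajb4, Bag3, Gadd45a and Myc in the 2 WT (blue) and 3 KO (orange) libraries, with the mean and SD of each group beside its points. KO 1 is the highest library for 5 of the 6 genes and the lowest for Myc, and the groups overlap for Hspa1a and Hspa1b alone.

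Gadd45a had the largest fitted change of the 49 genes and stood apart from its family. Gadd45a (chr6:67035096-67037457, minus strand), a small nuclear protein of the DNA damage and stress response that binds stress kinases, was at 29.5 and 29.9 CPM in WT 1 and WT 2 and at 72.6, 46.3 and 42.3 CPM in KO 1, KO 2 and KO 3. The WT libraries were nearly equal, every KO library lay above them and KO 1 was far above the others. The means were 29.7 ± 0.314 CPM (SD, n = 2) and 53.7 ± 16.4 CPM (SD, n = 3), a 1.81-fold higher level, or 0.86 on the log2 scale with an SE of 0.23 (edgeR adjusted p = 0.142). Without KO 1 the log2 change was 0.58 (SE 0.08) and was called (edgeR adjusted p = 0.0295), beside 2.32% of all genes called in that fit (2.22% higher and 0.104% lower). Scaled to the pan-T cell genes it was 1.14 (SE 0.24) and was called too (edgeR adjusted p = 0.0215). Under that scaling 8.59% of all genes were called higher and 0.180% lower. The summed erythroid markers were also higher in every KO library and highest in KO 1, at 92688, 56191 and 56249 CPM in KO 1, KO 2 and KO 3. Within WT the summed erythroid markers were at 20808 and 14845 CPM in WT 1 and WT 2. The part of erythroid cells in the level of Gadd45a was not tested. The table's Gadd45a shares 859 bases with a gene on the opposite strand, E230016M11Rik, which had a mean of 30 counts per library against 1208 for Gadd45a.

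The relatives of Gadd45a and the integrated stress response genes overlapped between the groups in CPM. Gadd45b, which NF-κB and TGF-β induce, was at 67.6 and 76.7 CPM in WT and 73.2, 77.9 and 69.2 CPM in KO, and Gadd45g had a log2 change of −0.06. Atf4, the translationally induced master factor of the integrated stress response, was at 251 and 283 CPM in WT and 304, 272 and 243 CPM in KO. Its target Ddit3 (CHOP), a mediator of cell death under stress, was at 23.4 and 23.7 CPM in WT and 28.8, 23.7 and 20.6 CPM in KO. In both genes and in Trib3 KO 1 was highest and KO 3 lowest of all libraries, so the KO group spanned WT on both sides. The log2 changes of Atf4, Ddit3 and Trib3 were 0.03, 0.05 and 0.08. Since ATF4 is controlled mainly by translation, its transcript does not report its protein.

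Across the 49 genes single libraries had a common tendency in CPM that crossed the genotypes. KO 1 was the highest KO library for 31 genes (63.3%, beside 34.6% of all genes tested), and KO 3 the lowest KO library for 32 (65.3%, beside 34.1% of all genes). WT 2 was the higher WT library for 37 genes (75.5%, beside 48.5% of all genes). All 6 stress members were higher in WT 2 than in WT 1, Trib3 only barely, and lowest of the KO libraries in KO 3. These orders are in CPM. In the deposited TPM KO 2 was the highest KO library for several of the 49 genes with KO 1 highest in CPM, among them Fos, Fosb, Dusp1, Zfp36 and Nfkbia. KO 1 stayed the highest KO library in TPM for Hspa1a, Hspa1b, Btg2 and Gadd45a, among others. The share of all genes with these orders in TPM was not computed. The median log2 level of the 49 genes against the WT mean was −0.04 in WT 1, 0.04 in WT 2, 0.15 in KO 1, 0.07 in KO 2 and −0.03 in KO 3, and that of all genes lay between −0.02 and 0.0040. Other members went against this order, and 9 were lowest of all libraries in KO 1 (Nr4a2, Nr4a3, Egr2, Egr3, Myc, Cd83, Hspa8, Hsp90ab1 and Hspe1). The haemoglobin share was highest in KO 1, and within WT it was 2.03% in WT 1 and 1.42% in WT 2. The summed neutrophil markers were at 148 and 184 CPM in WT and 257, 253 and 89.0 CPM in KO. The summed B cell markers were at 3292 and 4758 CPM in WT and 4309, 4022 and 3909 CPM in KO. Both sums were higher in WT 2 than in WT 1 and fell from KO 1 to KO 3. Marker sums of the other cell types examined did not have this order. The part of other cells in the order of the 49 genes was not tested.

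**Figure D4:**
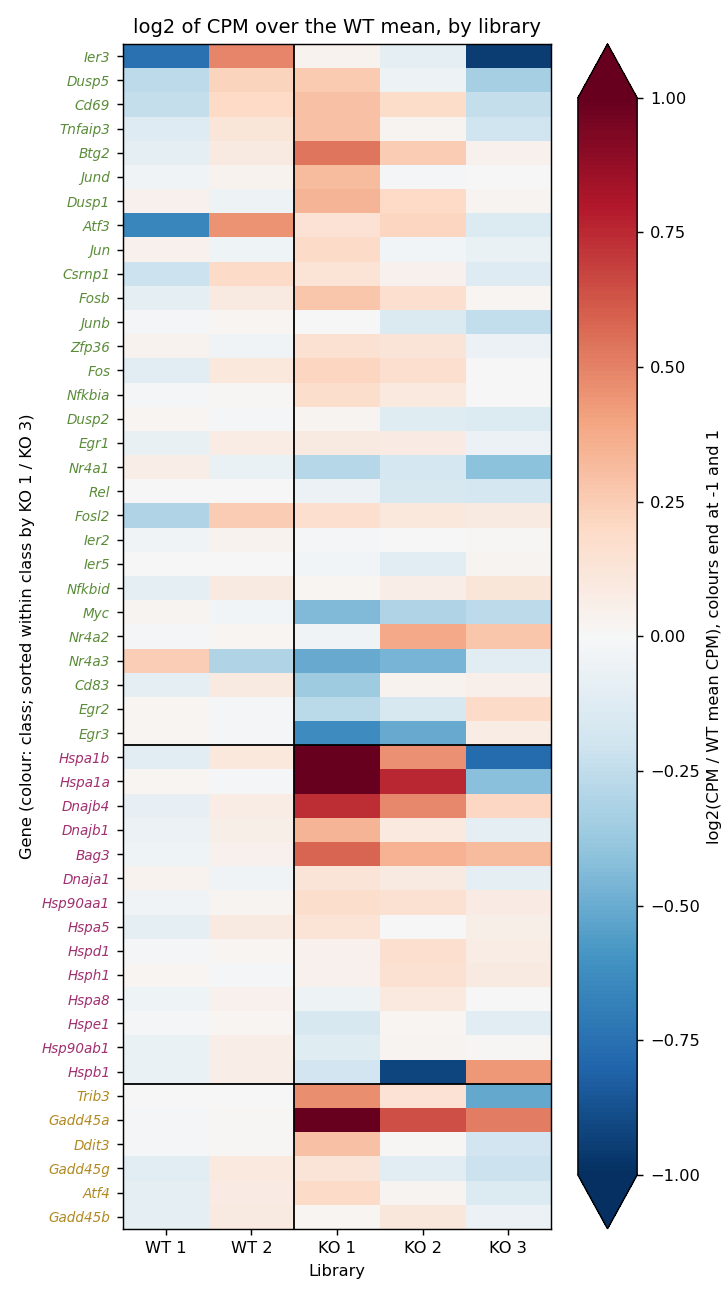
Log2 of CPM over the WT mean (colour, ends of the scale at −1 and 1) for the 49 genes (vertical, by class, sorted within class by the ratio of KO 1 to KO 3) in the 5 libraries (horizontal). KO 1 is reddest for Hspa1a, Hspa1b and Gadd45a, while Myc, Egr3 and Nr4a3 are blue there, and KO 3 is blue for Hspa1b and Ier3.

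The spread within groups differed among the members by level and by gene. The SD of log2 CPM within groups had a median of 0.132 over the members and 0.129 over all genes, with 24 members below and 25 above the median of all genes. It was 0.132 for the immediate early, 0.0994 for the heat shock and 0.182 for the stress members. Hspa1b (0.838) and Hspa1a (0.754) had the largest SD among the members, followed by Ier3 (0.652) and Hspb1 (0.536), which have few counts, and Atf3 (0.473). Ier2 (0.0289), Hsp90aa1 (0.0460), Hsph1 (0.0486) and Rel (0.0509) had the smallest. Between 308 and 916 counts lie behind Hspa1a and between 571 and 1953 counts behind Hspa1b in each library, so counting error is small beside their spread.

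**Figure D5:**
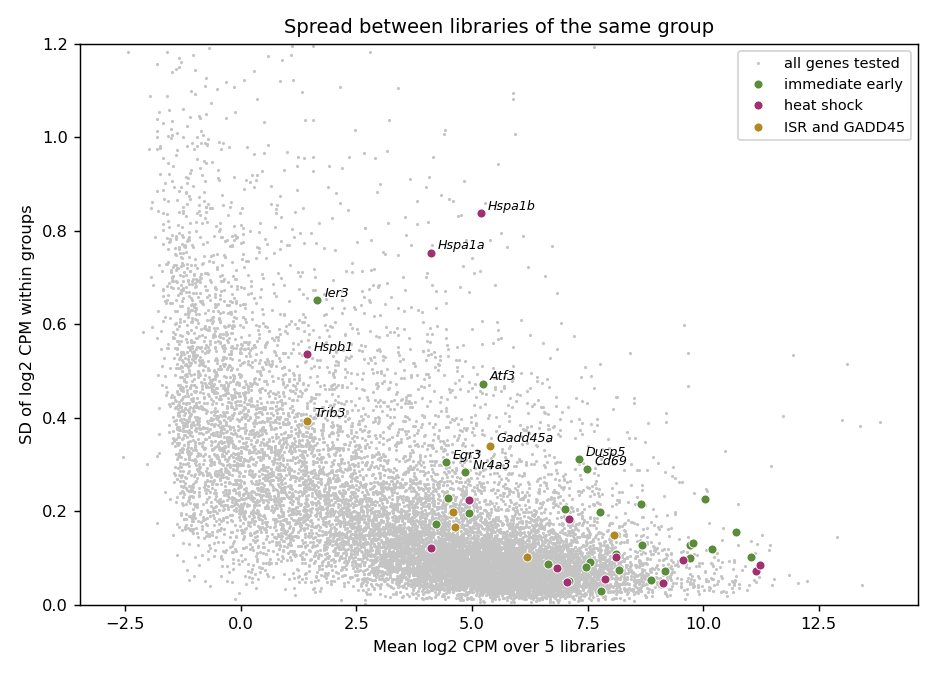
SD of log2 CPM between libraries of the same group (vertical) against the mean log2 CPM over the 5 libraries (horizontal) for all genes tested (grey) and the 49 genes (coloured by class); 95 genes lie above the top of the axis at 1.2. Hspa1b at 0.838 and Hspa1a at 0.754 lie far above most genes of their level, and most immediate early genes lie in the band of the other genes.

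Other genes of these pathways, in 4 lists, likewise had 0 called by edgeR in each list (0.284% of all genes called). Among 50 other early response genes the median log2 change was 0.09, with 4 higher and 4 lower at an unadjusted p under 0.05 (10.7% and 5.62% of all genes) and 3 called higher and 1 lower by DESeq2 (5.29% and 1.23% of all genes). The lowest p-values in that list were those of the ERK phosphatase gene Dusp4 (log2 change −0.35, edgeR adjusted p = 0.0784) and of Mafg, a small MAF partner of stress factors (0.49, edgeR adjusted p = 0.0793). Among 55 tested other chaperones and co-chaperones the median was −0.0059, with 5 higher and 1 lower at that p (10.7% and 5.62% of all genes) and 3 called higher by DESeq2 (5.29% of all genes). Dnajb2, an HSP40, led at 35.7 and 33.3 CPM in WT and 94.4, 59.8 and 59.2 CPM in KO (log2 change 1.04, edgeR adjusted p = 0.0856). Next was Bag2, a nucleotide exchange factor of HSP70 (1.23, edgeR adjusted p = 0.115). For both, every KO library lay above WT and KO 1 was highest, as for the summed erythroid markers given above, whose part was not tested.

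Of 45 tested other genes of the integrated stress and unfolded protein responses, 12 were higher and 0 lower at an unadjusted p under 0.05 (10.7% and 5.62% of all genes), and 4 were called higher by DESeq2 (5.29% of all genes). All KO libraries lay above WT for 16 of the 45 and below for 0 (17.6% and 17.4% of all genes), with a median log2 change of 0.10. Eif2ak1, the haem-regulated kinase that is abundant in red cell precursors, was at 89.2 and 97.6 CPM in WT and 194, 136 and 136 CPM in KO (log2 change 0.74, edgeR adjusted p = 0.104). KO 1 was its highest library, as for the erythroid markers given above, whose part was not tested. Ern1 (IRE1α), a sensor of unfolded protein in the endoplasmic reticulum, had a log2 change of 0.33 (edgeR adjusted p = 0.138). Among 16 tested p53 targets, a group to which Gadd45a also belongs, the median was −0.0011. Of these, 0 were higher and 1 lower at that p (10.7% and 5.62% of all genes). DESeq2 called 0 of them (5.29% of all genes called higher and 1.23% lower). Fas, a death receptor, and Trp53inp1 had the lowest p-values (log2 changes −0.33 and 0.20, edgeR adjusted p = 0.293 and 0.391).

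The gene models of 14 members overlap another gene of the table, mostly one with few counts. Csrnp1 lies wholly within the table's Cx3cr1 on the same strand, 6085 shared bases, with a mean of 6081 counts per library for Csrnp1 and 129 for Cx3cr1. On opposite strands, Dnaja1 and Smu1 share 608 bases (means of 7671 and 2096 counts), Junb and Prdx2 share 351 bases (57963 and 7467 counts) and Ddit3 and Mars share 68 bases (663 and 2344 counts). Without the strand setting, reads from such shared ends cannot be assigned with certainty.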

How the data were processed

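Per the submitters' processing notes, Trimmomatic 0.36, STAR 2.5.2b and the build GRCm38 were used, and per the labels' protocols ribosomal RNA was depleted. The counting tool, the annotation and the strand setting were not given in the sources used here. The authors deposited whole-number counts per gene, from which all tests start, and TPM values, which were used for levels between genes. All columns used were matched to a library by its label.

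After filterByExpr and TMM scaling, KO was compared with WT by edgeR 4.0.16 (quasi-likelihood test on genotype, R 4.3.3), with Benjamini-Hochberg adjustment over 14460 genes at a false discovery rate of 0.05. SEs were taken from F (absolute log2 change over the root of F), and the 95% intervals use them. CPM values are TMM-scaled, and log2 CPM uses a prior count of 2. The script was tested on simulated data. Depth was 25622614 to 30521797 counts, and pairs of libraries within a group differed beyond counting noise, with a chi-square of 16.5 to 39.1 per degree of freedom. The biological coefficient of variation was 13.1%. Member coordinates are those of the deposited table. All 49 members are protein coding in GENCODE M21, 38 of them with the same start and end.

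Alternatives were DESeq2 size factors, pan-T cell scaling, leaving out haemoglobin, mitochondrial, ribosomal RNA and antigen receptor genes, no filter, a mean of 50 counts, the DESeq2 1.42.0 Wald test, a replicate block, leaving out each library and a false discovery rate of 0.10. Summing Hspa1a and Hspa1b was added after their values were seen. The members and lists were chosen with earlier results of these data known. All members are accounted for, and of each related list, none of which had a gene called by edgeR, the 2 genes with the lowest p are named.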

Additional observations from a re-analysis of the deposited data

How the results depend on the processing

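The number of members called was 0, and it was 3 with pan-T cell scaling (Bag3, Dnajb4 and Gadd45a), 2 by DESeq2 (Gadd45a and Myc), 1 at a false discovery rate of 0.10 (Myc) and between 0 and 1 with 1 library left out (Gadd45a without KO 1). Over all genes 41 were called, 1268 with pan-T cell scaling, 118 with haemoglobin, mitochondrial, ribosomal RNA and antigen receptor genes left out, 589 with no filter, 23 with a mean of at least 50 counts, 966 by DESeq2 and 579 at a false discovery rate of 0.10. With 1 library left out this number was between 1 (without KO 2) and 334 (without KO 1), and it was 3 without WT 2, 11 without KO 3 and 45 without WT 1. The cause of these moves was not tested. With pan-T cell scaling, which moved the median of all genes by 0.28, the median log2 change was 0.31 for the immediate early, 0.37 for the heat shock and 0.31 for the stress members, and 11 members changed sign. The replicate numbers did not pair the libraries (correlation of deviations −0.00014 for number 1 and 0.06 for number 2), and with the replicate block 0 members and 32 genes were called. Of the fitted member values under these alternatives, 533 kept their direction and side of the threshold, 51 uncalled values changed sign and 6 passed the threshold. Of the sign changes, 12 came without KO 1 and 12 without WT 1. Members with few counts, such as Trib3, Hspb1 and Ier3, have wide intervals, and 2 and 3 libraries per group limit what can be called.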
